A study of Mus musculus with 4 samples.

Results

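The 10 genes described here, Pank1, Pank2, Pank3, Ctdsp1, Ctdsp2, Ctdspl, Dnm2, Dnm3, Egfl7 and Wwp2, encode proteins and hold, within their bodies, the hairpins of the miR-103 and miR-107, miR-26, miR-199, miR-126 and miR-140 families. They were taken by gene name from the annotation of the arrays, which gave 22 of 41174 probes, or 10 of 28095 gene names. The arrays measured total RNA of wild type primary mouse embryonic fibroblasts of strain C57BL/6. Cells received 60 nM of a negative control siRNA or of an siRNA against Exportin-5 (gene Xpo5) for 12 h, stayed in 0.2% serum for 48 h, and were returned to 20% serum for 24 h together with a second dose of the same siRNA. Both groups went through the same starvation and refeeding, so that the comparison is between 2 siRNAs in refed cells and holds no untransfected or unstarved culture. Each group held 2 samples, from 2 independent experiments, each on its own 1-colour array. Nothing in the labels says that the experiments used different embryos, and p-values therefore measure the spread between these samples.

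Most animal microRNAs are cut in the nucleus from a longer primary transcript, leave the nucleus as hairpins bound to Exportin-5, and are then trimmed to the mature strand. An intronic microRNA can share its promoter with the gene that holds it, and the host messenger RNA is then a readout of the same transcription unit. Mature microRNAs were not measured on these arrays, and the values below are those of the host messenger RNAs. A comparison of hosts between the siRNAs asks whether the supply side of these microRNAs differs when the exporter is reduced.

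In the mouse RefSeq annotation of assembly GRCm38.p6, each of the 10 genes contained at least 1 of these hairpins. For 8 hosts such a hairpin lay on the strand of the gene. Mir107 lay at chr19:34820687-34820773, within Pank1 and toward its 3′ end. Mir103-2 lay within Pank2 at chr2:131288052-131288137, and Mir103-1 within Pank3 at chr11:35782396-35782481. Among the miR-26 hosts, Mir26b was at chr1:74394310-74394394 in Ctdsp1, Mir26a-2 at chr10:126995530-126995613 in Ctdsp2 and Mir26a-1 at chr9:119031796-119031885 in Ctdspl. Mir126a lay 88.6% along Egfl7 at chr2:26591357-26591429, and Mir140 lay 93.5% along Wwp2 at chr8:107551244-107551313. Egfl7 also held Mir126b, on the opposite strand at chr2:26591363-26591420. The dynamin genes were different, since all of their hairpins lay on the opposite strand. These were Mir199a-1 in Dnm2, at chr9:21496495-21496564, and Mir199a-2 in Dnm3, at chr1:162217814-162217923, with Mir214 at chr1:162223368-162223477. A dynamin messenger RNA is therefore not the precursor of miR-199a.

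The mature strands are shown because they define which hosts supply the same microRNA, with the seed, bases 2 to 8, in capitals. Sequences are from RefSeq, 5′ to 3′, and 5p and 3p name the arm of the hairpin. Not every strand is shown, and the annotation used held no 5p strand of miR-140 or miR-126a.
miR-103-3p (Pank2 and Pank3): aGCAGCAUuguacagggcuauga
miR-107-3p (Pank1): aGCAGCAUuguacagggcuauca
miR-26a-5p (Ctdsp2 and Ctdspl): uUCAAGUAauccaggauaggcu
miR-26b-5p (Ctdsp1): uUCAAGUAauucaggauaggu
miR-199a-5p (opposite strand of Dnm2 and Dnm3): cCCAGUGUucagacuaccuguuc
miR-199a-3p (opposite strand of Dnm2 and Dnm3): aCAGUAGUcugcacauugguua
miR-126a-3p (Egfl7): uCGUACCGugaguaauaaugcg
miR-140-3p (Wwp2): uACCACAGgguagaaccacgg

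Among the strands shown, the 3 pantothenate kinase genes thus supplied 1 seed. Outside it miR-103-3p and miR-107-3p differ in 1 base, G22C counted from the 5′ end. The 3 small phosphatase genes likewise supplied 1 seed among the strands shown. There miR-26a-5p and miR-26b-5p differ at 2 bases, C11U and C21U. The other arms of these hairpins, not shown, carry other seeds, and Ctdsp2 also holds the hairpin Mir546 on its own strand. Egfl7 and Wwp2 each stood alone with the seeds shown for them among these hosts.

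Of the non-control spots 62.4% to 65.0% were well above background, and precision is limited by having 4 arrays. Levels are log2 signals counted from each array's 75th percentile, which is 0, and differences are Xpo5 siRNA minus control siRNA in log2 units. Xpo5 itself was at 10.8%, 11.9% and 39.9% of its control signal by its 3 tested probes. Its brightest probe read 1.22 and 1.17 in controls and -2.03 and -2.02 under Xpo5 siRNA, a difference of -3.21 ± 0.14 (SE, n = 2 arrays per group). Its limma adjusted p was 0.0660 over the 25641 probes tested, and 0.0425 with the replicate number as a block. In this fit 0 probes passed at an adjusted p under 0.05, while 2780 had an unadjusted p under 0.05, so that a missing call at this size says little about whether a gene differed. With median scaling every difference is lower by 0.12, so that positive differences smaller than this turn and negative ones grow. All 9 fibroblast markers were detected on all 4 arrays, with 7 higher and 2 lower. Of 9 macrophage markers 9 were higher, with a median of 0.67, 5 of them at an unadjusted p under 0.05, beside 6.65% of all tested probes. Of these markers 0 passed in the fits of all probes and 4 in the fit of 1 brightest probe per current symbol with the replicate block, where 4.43% of all genes did. That fit was chosen after the data were seen. The macrophage markers had a summed linear signal of 4.77 to 6.95 in controls and 7.24 to 9.83 with Xpo5 siRNA, and their part in the host values was not tested.

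The estimated differences of the tested host probes between the siRNAs went in both directions, from -0.41 to 0.41, and their intervals reach further. Of the 22 probes 20 were well above background on all 4 arrays and were tested. Of these, 0 passed the adjusted threshold in limma, where 0% of all tested probes did, with adjusted p values of 0.436 to 0.991. With the replicate block 0 passed as well, at 0.167 to 0.980, against 0.0156% of all probes (0.0039% higher and 0.0117% lower). Read by 1 brightest probe per current symbol with that block, called the gene-level block fit below, 0 of the 10 hosts passed, against 4.43% of all genes. The gene-level block fit was not planned but chosen after the data were seen, so its passes are descriptions and not tests decided beforehand. Without the block 1 host probe was lower at an unadjusted p under 0.05 and 0 were higher, against 4.2% and 6.65% of all tested probes, or 10.8% in all. With it 2 were lower and 0 higher, against 9.2% and 14.3%, or 23.5% in all.

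Differences of the host probes went from -0.41 to 0.41, with a median of -0.01, beside a median of 0.03 over all tested probes. In both experiments 7 probes were higher and 8 lower with Xpo5 siRNA, against 37.6% and 32% of all tested probes, or 69.6% together. The groups did not overlap for 11 of the 20, with 4 higher and 7 lower, beside 43.1% of all tested probes, with 22.7% higher and 20.4% lower. Of the 20, 0 reached 2-fold, against 1.78% of all tested probes. The 95% interval from limma stayed within 2-fold in both directions for 18, and those of the Dnm2 probe at position 1580 and the Wwp2 probe at position 297 did not.

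**Figure D1:**
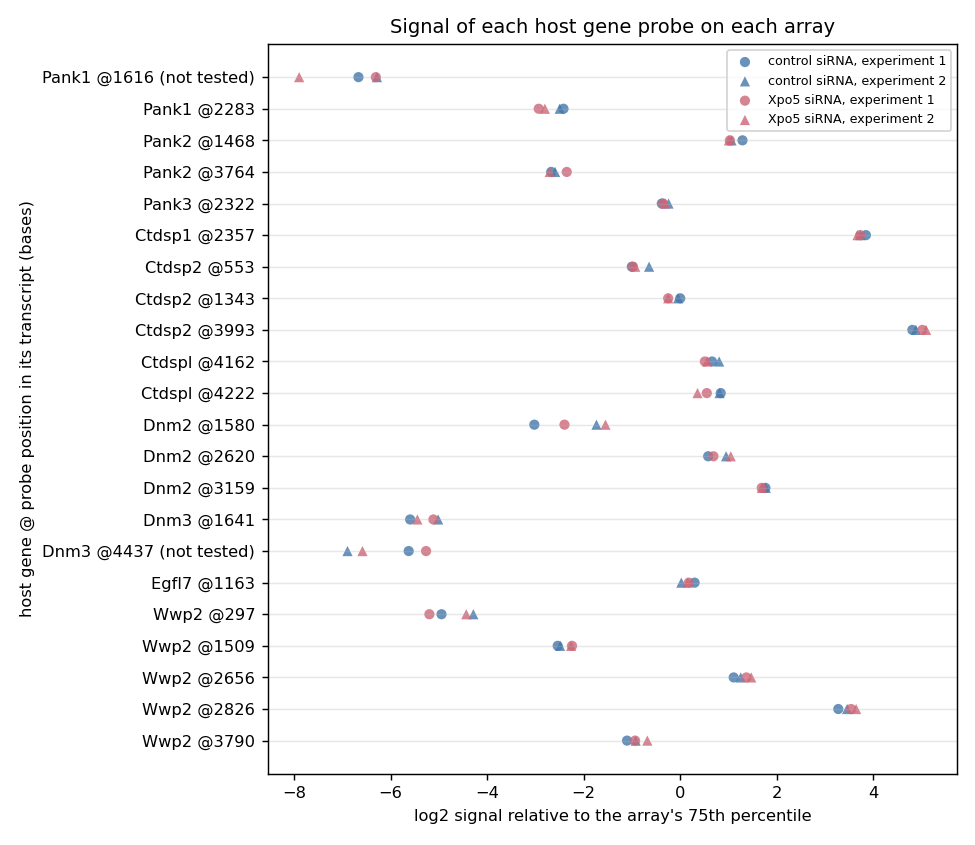
Signal of the 22 host gene probes on each of the 4 arrays (x axis, log2 relative to the array's 75th percentile), with the probe's position in its transcript after the gene name (y axis). Colours mark the siRNA and shapes the experiment. The 4 points of most probes lie close together, and the widest spreads are at the dim probes, such as those of Dnm3 and the Dnm2 probe at position 1580.

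**Figure D2:**
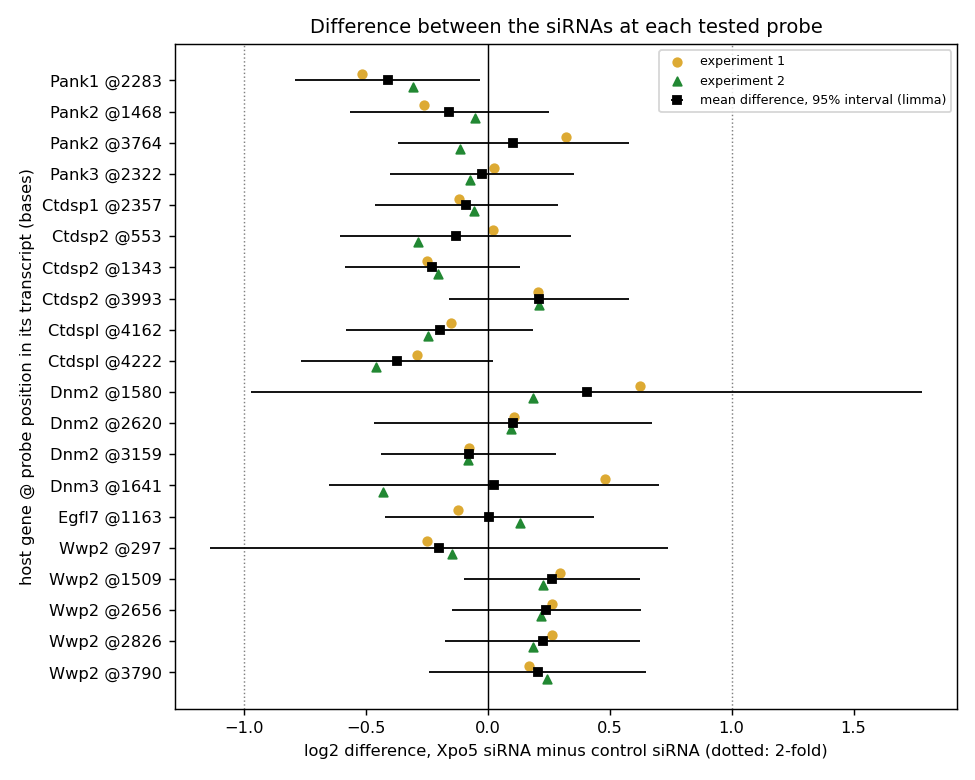
Difference between the siRNAs for the 20 tested probes (x axis, log2), as the mean with its 95% interval from limma (black) and as the value of each experiment. The differences lie between -0.41 and 0.41, and the interval of the Pank1 probe alone does not hold 0.

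Pank1, Pank2 and Pank3 encode pantothenate kinases, which start the synthesis of coenzyme A from vitamin B5. Pank1, the host of miR-107, had the lowest difference among the tested host probes. Its probe at chr19:34885801-34885860 (mm9, minus strand, as the files give it) read -2.42 and -2.50 in controls and -2.93 and -2.80 with Xpo5 siRNA. Both arrays with Xpo5 siRNA were below both controls, as in 20.4% of all tested probes. The difference was -0.41 ± 0.14 (SE, n = 2 arrays per group), with a 95% interval of -0.79 to -0.03, or 75.3% of the control signal. The unadjusted limma p was 0.0394 and the adjusted p 0.436, and 0.167 with the replicate block. It was -0.51 and -0.31 in the 2 experiments, and -0.43 and -0.39 within slides 1 and 2. The second Pank1 probe, at chr19:34951951-34952010, was well above background on 0 of 4 arrays and gave no comparison. Under normexp background correction the tested Pank1 probe read 0.77 in place of -0.41, and it stayed lower once unevenly lit spots were left out.

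The probe of Pank2, host of miR-103-2, at position 1468 of its transcript read 1.29 and 1.06 in controls and 1.03 and 1.01 with Xpo5 siRNA. The groups did not overlap, but the gap of 0.23 between the control arrays exceeded the difference of -0.16. The probe at position 3764 of Pank2 read -2.67 and -2.59 in controls and -2.35 and -2.70 with Xpo5 siRNA, and its sign differed between the experiments. Pank3, host of miR-103-1, read -0.38 and -0.24 in controls and -0.36 and -0.32 with Xpo5 siRNA. These groups overlapped, and the difference of -0.02 had a 95% interval of -0.40 to 0.36. The hosts of the seed of miR-103 and miR-107 therefore gave a probe of Pank1 and 1 of Pank2 that were lower in both experiments and 2 probes with opposite signs in the experiments, and the difference between Pank1 and Pank3 was not tested.

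The profile of Pank1 over the 4 arrays, centred on its mean, was most like those of Zfp689, Dcaf13 and Map4k4, with root mean square differences of 0.0082, 0.0102 and 0.0124 among 25628 other probes. Other genes of coenzyme A synthesis were read from a list of 7, all of them tested. Of these 0 passed in either direction, 3 were higher and 4 lower, and the median was -0.01. Those with the smallest p were Slc25a42, a mitochondrial carrier of coenzyme A, at 0.75, Dcakd at -0.29, and Pank4, a relative of the kinases, at -0.24. Slc25a42 alone passed in the gene-level block fit, as higher, against 4.43% of all genes. It was well above background on 0 of 2 control arrays. It thus entered the test only through the group where it was high, and this pass is no support for a rise. Pank4 read 2.12 and 1.88 in controls and 1.81 and 1.72 with Xpo5 siRNA, lower in both experiments as Pank1 was.

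Ctdsp1, Ctdsp2 and Ctdspl encode small phosphatases that act on the tail of RNA polymerase II and help the REST repressor keep neuronal genes silent. Both probes of Ctdspl, the host of miR-26a-1, were lower with Xpo5 siRNA. The probe at chr9:118952833-118952892 (mm9) read 0.84 and 0.81 in controls and 0.55 and 0.36 with Xpo5 siRNA. The adjoining probe at chr9:118952773-118952832 read 0.66 and 0.80 in controls and 0.51 and 0.56 with Xpo5 siRNA. In neither probe did the groups overlap, as in 20.4% of all tested probes, counting those lower with Xpo5 siRNA. The differences were -0.37 ± 0.15 and -0.20 ± 0.15 (SE, n = 2 arrays per group), with limma adjusted p values of 0.477 and 0.665. The 2 probes lie next to each other in 1 transcript and are not independent readings of the gene.

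Ctdsp2, the host of miR-26a-2, gave opposite signs along its transcript. The probe at position 3993 (chr10:126436889-126436948, mm9) read 4.81 and 4.88 in controls and 5.01 and 5.09 with Xpo5 siRNA. The probe at position 1343 (chr10:126434239-126434298) read -0.00 and -0.05 in controls and -0.25 on both arrays with Xpo5 siRNA. Groups did not overlap in either probe, as in 43.1% of all tested probes. Each kept its sign in both experiments, as did 69.6% of all tested probes. The differences were 0.21 ± 0.14 and -0.23 ± 0.14 (SE, n = 2 arrays per group), with limma adjusted p values of 0.639 and 0.606. The third probe, at position 553, differed by 0.02 in experiment 1 and -0.29 in experiment 2, and its groups overlapped. Whether the 3 probes differ from each other was not tested, and the brightest of them alone would have read Ctdsp2 as higher, except under normexp, where it stood at -1.02 before unevenly lit spots were left out. Ctdsp1, the host of miR-26b, read 3.84 and 3.73 in controls and 3.73 and 3.67 with Xpo5 siRNA, a difference of -0.09 with a 95% interval of -0.46 to 0.29.

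Among 9 other genes of CTD-type phosphatases and the REST complex, all tested, 0 passed in either direction, 3 were higher and 6 lower, and the median was -0.07. Rest itself differed by 0.09, and by 0.53 at its other probe. Rcor1, a corepressor that works with REST, read 2.19 and 2.39 in controls and 2.66 and 3.09 with Xpo5 siRNA, a difference of 0.59 (limma adjusted p = 0.435), with its other probes at 0.72 and 0.15. Rcor3, its relative, differed by -0.36, and Ctdnep1, a phosphatase of the nuclear envelope, by -0.24. Of 6 neural markers tested, out of 8, 5 were higher and 1 lower with Xpo5 siRNA, with a median of 0.56 and Nefl at 1.15. In the fits of all probes 0 passed, and 3 passed in the gene-level block fit, against 4.43% of all genes. The summed linear signal of the 6 was nonetheless lower with Xpo5 siRNA, at 7.18 to 7.26, than in controls, at 7.76 to 8.53. Snap25 and Gfap were not tested, and the part of other cells in the host values was not tested.

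Dnm2 and Dnm3 encode dynamins, GTPases that pinch vesicles from membranes, the first in most tissues and the second mainly in brain and testis. The Dnm2 probe nearest the 3′ end, at position 3159 (chr9:21311245-21311304, mm9), read 1.76 and 1.77 in controls and 1.69 on both arrays with Xpo5 siRNA. Both values with Xpo5 siRNA were lower, by a mean of 0.08 that is small beside its 95% interval of -0.44 to 0.28. The probe at position 2620 read 0.58 and 0.95 in controls and 0.69 and 1.05 with Xpo5 siRNA, higher by 0.11 and 0.10 within the experiments. The probe at position 1580 read -3.02 and -1.74 in controls and -2.40 and -1.55 with Xpo5 siRNA. At both of these the groups overlapped, and the gap between the experiments was larger than that between the siRNAs.

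Dnm3 was near background. Its probe at position 1641 read -5.59 and -5.01 in controls and -5.11 and -5.44 with Xpo5 siRNA, with opposite signs in the experiments. The probe at position 4437 was well above background in experiment 1 and not in experiment 2, with either siRNA, and was not tested. It read -5.62 and -6.89 in controls and -5.26 and -6.58 with Xpo5 siRNA.

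The probe of Dnm3 at position 1641 and the probe of Dnm2 at position 1580 detect the same stretch of the 2 related messages, and both are shown because each could take up some of the other's transcript. Capitals mark bases that are identical over the aligned stretch.
Dnm3 probe: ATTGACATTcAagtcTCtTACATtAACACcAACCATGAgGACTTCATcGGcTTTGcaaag
Dnm2 probe: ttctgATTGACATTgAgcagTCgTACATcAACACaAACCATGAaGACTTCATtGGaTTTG

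They share 44 of 55 aligned bases, or 80.0%, whereas the next most alike pair of host probes, of 211 compared between genes, shared 27 of 53. The signals of both are low, and binding of the other's message was not tested.

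The transcript that does carry miR-199a-2 and miR-214 is the antisense RNA Dnm3os. It read 0.79 and 0.73 in controls and 0.81 and 1.01 with Xpo5 siRNA, a difference of 0.15 ± 0.15 (SE, with n = 2 in each group; adjusted p = 0.753), and its other probe differed by 0.27. Both of its Xpo5 siRNA arrays were above the controls, as in 22.7% of all tested probes. Dnm3os was higher by 0.02 in experiment 1 and 0.28 in experiment 2. The first of these is smaller than the shift of 0.12 under median scaling. Of 14 relatives and endocytic partners of the dynamins, all tested, 0 passed, 7 were higher and 7 lower, and the median was -0.03. Those with the smallest p were Ap2a1, a subunit of the clathrin adaptor, at -0.34, Dnm1l, the dynamin of mitochondrial fission, at 0.21, and Pacsin2 at -0.17. Other probes of Dnm1l differed by 0.26 and -0.24, and those of Pacsin2 by -0.16 and 0.23.

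Egfl7 encodes a secreted protein of endothelial cells that binds Notch receptors, and its gene is the source of miR-126. Its single probe, at chr2:26447977-26448036 (mm9), read 0.30 and 0.02 in controls and 0.18 and 0.15 with Xpo5 siRNA. The Xpo5 siRNA arrays lay between the controls. The difference was 0.01 ± 0.16 (SE, n = 2 arrays per group), with a 95% interval of -0.42 to 0.44 and an adjusted p of 0.991 in limma. Of the 9 endothelial markers 4 were tested, and Pecam1, Cdh5, Tie1, Cldn5 and Robo4, which define the cell type, were not above background in both arrays of either group. Of the 4, 3 were higher and 1 lower with Xpo5 siRNA, 0 passed, and Kdr passed in the gene-level block fit, against 4.43% of all genes. The summed linear signal of the 4 was 0.793 and 0.845 in controls and 0.986 and 0.960 with Xpo5 siRNA, with Kdr differing by 1.20, Tek by 0.64 and Emcn by -0.33. The part of endothelial cells was not tested.

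Of 9 genes of the Egfl7 relatives, Notch receptors and Notch ligands, 6 were tested. Of these 0 passed, and the median was 0.45. In both experiments 5 were higher and 1 lower, beside 37.6% and 32% of all tested probes. Notch4 read -3.79 and -3.69 in controls and -3.22 and -2.88 with Xpo5 siRNA, a difference of 0.70 (limma adjusted p = 0.355). Notch3, a receptor of mural cells, differed by 0.49 and the ligand gene Jag1 by 0.53. Of the 6, 2 were higher at an unadjusted p under 0.05, Notch4 and Notch3, beside 6.65% of all tested probes.

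Wwp2 encodes a ubiquitin ligase of the NEDD4 family, and miR-140 from its gene is a microRNA of cartilage. It was the host with the most probes, and 4 of the 5 were higher with Xpo5 siRNA in both experiments, beside 37.6% of all tested probes. The brightest, at position 2826 (chr8:110081041-110081100, mm9), read 3.27 and 3.45 in controls and 3.54 and 3.64 with Xpo5 siRNA. Its neighbour at position 2656 (chr8:110080871-110080930) read 1.11 and 1.25 in controls and 1.37 and 1.47 with Xpo5 siRNA. The probe for another cDNA of the gene (chr8:110069767-110069826) read -2.54 and -2.49 in controls and -2.24 and -2.26 with Xpo5 siRNA. In these 3 probes the groups did not overlap, as in 22.7% of all tested probes, counting those higher with Xpo5 siRNA. Probes of the same gene are not independent readings of it. The last probe of the transcript, at position 3790, read -1.10 and -0.92 in controls and -0.94 and -0.68 with Xpo5 siRNA, where the groups overlapped.

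Differences of these 4 Wwp2 probes were 0.23, 0.24, 0.26 and 0.20, with standard errors of 0.14 to 0.17 and limma adjusted p values of 0.569 to 0.701, so that none passed. The fifth probe lies at position 297 (chr8:109981800-109981859), near the 5′ end, and the 5 probes span 100.3 kb of the genome. It read -4.94 and -4.29 in controls and -5.20 and -4.43 with Xpo5 siRNA, a difference of -0.20 ± 0.36 (SE, n = 2 arrays per group), lower by 0.25 and 0.15 within the experiments. Its 95% interval of -1.14 to 0.74 holds the values of the other 4, and the difference between the 5′ probe and the others was not tested. Under the replicate block the adjusted p values were 0.254 to 0.356 for the 5 probes. Under normexp the probes at positions 297, 2656 and 2826 turned to 1.61, -0.11 and -1.18, and without unevenly lit spots the probe at position 297 alone turned, to 0.088.

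Of the 8 chondrocyte markers 4 were tested, with 2 higher, 2 lower and 0 passing, and Sox9 at -0.13 and Acan at 0.57. Their summed signal was 5.03 to 5.43 in controls and 5.00 to 5.46 with Xpo5 siRNA, with overlapping ranges. Among 8 other ligases of the NEDD4 family, all tested, 0 passed, 5 were higher and 3 lower, and the median was 0.13. Wwp1, the closest relative, differed by 0.08 in experiment 1 and 0.62 in experiment 2, a mean of 0.35 with its other probes at 0.54 and 0.51. Smurf1 differed by 0.20. Hecw1 differed by 0.57, but its signal was low, at -5.45 and -5.12 in controls and -5.33 and -4.10 with Xpo5 siRNA. Its groups overlapped, and it differed by 0.12 in experiment 1 and 1.02 in experiment 2, with its other probe at 0.42.

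Within Dnm2 and Wwp2 the gap between the experiments differed along the transcript. Over all tested probes, the median of replicate 1 minus replicate 2 was 0.03 with control siRNA and 0.01 with Xpo5 siRNA, with 5th to 95th percentiles of -0.87 to 0.60 and -0.64 to 0.47. The Dnm2 probe at position 1580 stood at -1.29 and -0.85, and the Dnm2 probe at position 3159 at -0.01 and -0.00. In Wwp2 the probe at position 297 stood at -0.66, inside that range, and -0.76, outside it, and the probe at position 2826 at -0.18 and -0.10. The probes nearest the 5′ end of Dnm2 and Wwp2 thus read lower in experiment 1 with both siRNAs, by more than the differences between the siRNAs. In Ctdsp2 the probe at position 553 did so with control siRNA, at -0.36, and stood at -0.05 with Xpo5 siRNA. In Pank2 the probe nearer the 5′ end, at position 1468, went the other way, at 0.23 and 0.02. The probes nearest the 5′ end of Dnm2, Wwp2 and Ctdsp2 were also the dimmest of their genes. Position and low signal therefore cannot be told apart here. The part of RNA quality in the host values was not tested.

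**Figure D3:**
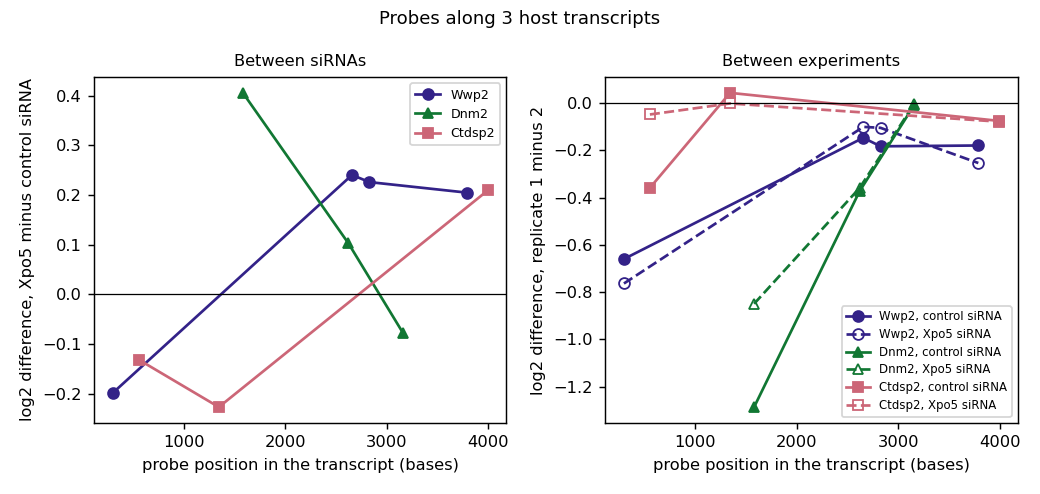
Probes of Wwp2, Dnm2 and Ctdsp2 by their position in the transcript (x axis, bases from its start), with the difference between the siRNAs (left) and between replicates 1 and 2 of each siRNA (right), in log2 units. Lines join the probes of a gene. The Wwp2 probe at position 297 and the Dnm2 probe at position 1580 lie lowest in the right panel, and the Wwp2 probe for another cDNA is left out because its position counts along that cDNA.

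**Figure D4:**
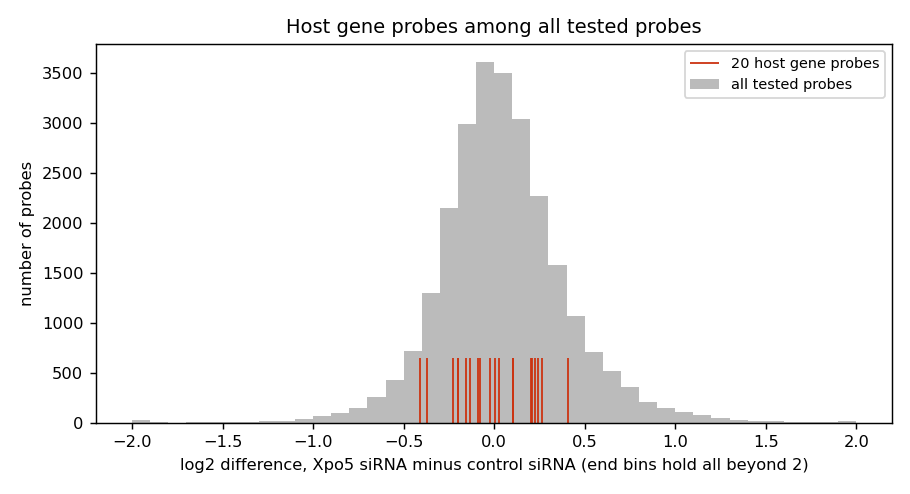
Number of tested probes (y axis) by difference between the siRNAs (x axis, log2, bins of 0.1, with values beyond 2 in the end bins), with the 20 host gene probes as red lines. The red lines lie in the bulk of the distribution, between -0.41 and 0.41.

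Hosts of other intronic microRNAs were read from a list of 30 coding genes, of which 25 were tested. Of these 0 passed, 13 were higher and 12 lower, and the median was 0.00. In the gene-level block fit 1 passed (Myh7), against 4.43% of all genes. Myh7, a slow muscle myosin whose intron holds miR-208b, read -4.83 and -5.04 in controls and -3.00 and -3.04 with Xpo5 siRNA, a difference of 1.91 ± 0.15 (SE, with n = 2 in each group; adjusted p = 0.212, and 0.0997 with the replicate block). Arrb1, an arrestin gene that holds miR-326, differed by 0.56, with its other probe at 0.36. Mcm7, a subunit of the replicative helicase and host of the miR-106b cluster, read 4.48 and 4.32 in controls and 3.98 and 3.90 with Xpo5 siRNA, a difference of -0.46. Of these hosts 3 were higher and 1 lower at an unadjusted p under 0.05, beside 6.65% and 4.2% of all tested probes.

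Published targets of the hosted microRNAs were also read, from lists of general knowledge made with earlier results of these data known. All members reported were tested, and 0 of any list passed in the limma fits of all probes, with or without the replicate block. In the gene-level block fit Cav1 was higher, and Hdac4, Ccne2 and Hmga2 were lower, at adjusted p values of 0.0439 to 0.0464 in limma, beside 4.43% of all genes. For miR-103 and miR-107, 7 of 7 targets were higher, with a median of 0.27. In both experiments 5 of them were higher, beside 37.6% of all tested probes. However, Dicer1, Cdk5r1 and Dapk1, at 0.01, 0.01 and 0.11, turn lower under median scaling. Other probes went the other way for Dicer1, at -0.24, and for Cdk6, at -0.26 with another at 0.04. Cav1, the main protein of caveolae, read 5.82 and 5.74 in controls and 6.52 and 6.40 with Xpo5 siRNA, a difference of 0.67 ± 0.14 (SE, with n = 2 in each group; adjusted p = 0.316), and its other probe differed by 0.53. Klf4, a transcription factor gene, differed by 0.33 and Axin2, a Wnt inhibitor gene, by 0.36.

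For miR-26, 3 of the 6 targets reported here were higher and 3 lower, and no median is given because the list is not reported in full. Ccne2, a cyclin of S phase entry, read -1.43 and -1.42 in controls and -2.27 and -2.22 with Xpo5 siRNA, a difference of -0.82 ± 0.14 (SE, n = 2 arrays per group). Hmga2, a chromatin protein of embryonic cells, differed by -0.76, and its other probes by -0.47 and -0.29. Ezh2, the methyltransferase of Polycomb repressive complexes, read 0.79 and 0.75 in controls and 0.32 and 0.23 with Xpo5 siRNA, a difference of -0.49. These 3, named for having the smallest p of those reported, were lower in both experiments, beside 32% of all tested probes. Their adjusted p values in limma were 0.309 to 0.369 without the block.

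For miR-199a, 4 of 6 targets were higher and 2 lower, with a median of 0.24. Cav1 belongs to this list too, Mtor, a growth kinase gene, differed by 0.30, and Met, a growth factor receptor gene, by -0.39, with its other probes at 0.02 and -0.52. For miR-126, 2 of 5 were higher and 3 lower, with a median of -0.02, with Irs1, an adaptor of the insulin receptor, at 0.51, whose other probe read -0.12. For miR-140, 2 of 6 were higher and 4 lower, with a median of -0.06, and the list was not split by the 5p and 3p arms. Hdac4, a histone deacetylase gene of cartilage and muscle, read -0.03 and -0.42 in controls and -1.50 and -1.63 with Xpo5 siRNA. Its difference of -1.34 ± 0.19 (SE, with n = 2 in each group; adjusted p = 0.309) was the lowest in the target lists. Unadjusted p values under 0.05 were reached by 1 of the miR-103 and miR-107 targets, 3 of the 6 miR-26 targets reported, 1 of the miR-199a, 0 of the miR-126 and 1 of the miR-140, against 10.8% of all tested probes.

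**Figure D5:**
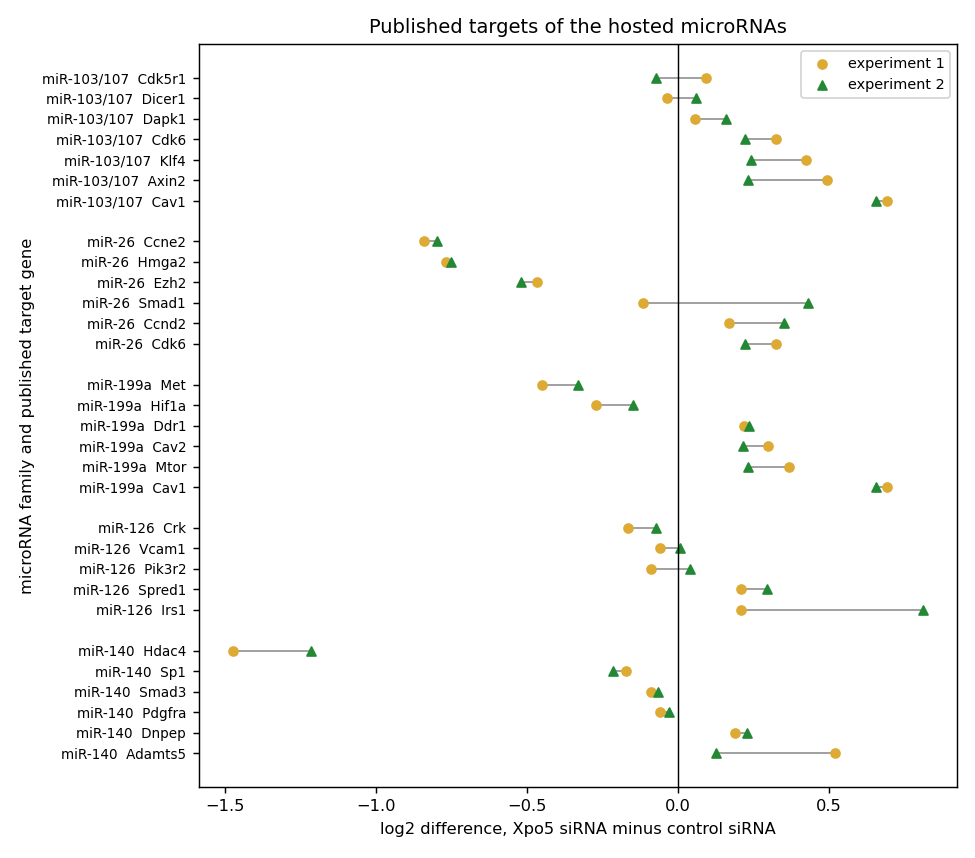
Difference between the siRNAs in each experiment (x axis, log2) for the reported published targets of the 5 microRNA families (y axis), each gene by its brightest tested probe. Grey lines join the experiments. The miR-103 and miR-107 targets have means above 0, which for Dicer1, Cdk5r1 and Dapk1 turns under median scaling, while the miR-26 targets lie on both sides, from Ccne2 at -0.82 to Cdk6 at 0.27.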

How the data were processed

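Per the labels' protocols, Cy3-labelled total RNA of 4 samples was hybridised to 1-colour Agilent arrays. Each deposited scanner file gives spot intensity, which Feature Extraction 10.5.1.1 had background-subtracted and detrended, per the file headers. The deposited log2 table equals the log2 processed signal shifted by 1 constant per array, within 0.001 for 99.7% to 99.8% of probes.

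Log2 processed signals were taken relative to each array's 75th percentile over non-control spots, outlier spots (77 to 134 per array) were left out, and spots of a probe were averaged. Tested were probes well above background on 2 of 2 arrays in either group, 25641 of 41174, each on its own, with limma 3.58.1 in R 4.3.3 (lmFit and eBayes, two-sided, Benjamini-Hochberg at 0.05, no block). The fit was tested on simulated data, where with 2 arrays per group it called none of the differences put in. These were of 1 and 2 log2 units, in 100 probes each. The simulated data held no gap between experiments, and the fits with a block were not simulated. The smallest exact permutation p of 2 arrays against 2 is 0.333. Probe positions are those of the files (mm9), and microRNA positions and sequences are from RefSeq GRCm38.p6, with no conversion between builds. Exon and UTR annotation on mm9 was not used here.

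Named are all members, Xpo5, up to 3 genes with the smallest p in each of 12 lists and 5 marker lists, and the 3 genes nearest the member probe of smallest p. Rest, Dicer1, Cdk5r1 and Dapk1 were named after their values were seen. List genes were matched through RefSeq by accession, symbol or synonym (8343 probes had no match) and read by their brightest tested probe. From the miR-26 targets 1 gene is not reported here, and it is left out of that list's counts. Members and lists were chosen with earlier results of these data known.

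Replicate numbers were read as the 2 experiments of the series text. Same-numbered arrays deviated together from their group means (r = 0.515 over 25629 probes, which are not independent). Both slides carried 1 array per group, of unlike numbers. Alternatives were normexp, quantile and median scaling, other filters, gene-level values, a trend, slide and replicate blocks, a 2-fold threshold, each array left out and the deposited log2 table.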

Additional observations from a re-analysis of the deposited data

How the results depend on the processing

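No host gene probe passed in limma under any alternative run, where the smallest adjusted p was 0.103, but with 2 arrays per group the threshold is hard to pass, and this says nothing of stability. The median of host probes, -0.01, moved to -0.13 with median scaling and with the deposited log2 table, which shift all tested probes by -0.12 alike, and went from -0.083 without replicate 1 of control siRNA to 0.089 without replicate 2 of control siRNA. With median scaling the 4 Wwp2 probes that read higher stood at 0.09 to 0.14. Of all probes, 0 passed at first. With the replicate block 4 passed, the same number pairing taken with 1 brightest probe per current symbol (chosen after seeing the data) gave 617, and without the block 3. The count was 2 with 1 probe per gene name, 1 with the mean of the probes, 1 with an intensity trend, 1 with normexp repaired for unevenly lit spots, 10 with median scaling and 10 with the deposited log2 table. Leaving out 1 array gave 0 to 6, the most without replicate 1 of control siRNA.

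Of the 20 tested host probes, 7 kept their sign under every alternative run. Median scaling turned Pank2 at position 3764 to -0.014, Dnm2 at position 2620 to -0.016, Dnm3 to -0.093 and Egfl7 to -0.11, as did the deposited log2 table, at -0.014, -0.017, -0.093 and -0.11. Quantile normalization turned Dnm3 to -0.071. Normexp, in which unevenly lit spots enter the fit, raised the median of all tested probes by 0.42, to 0.45, and left that of the host probes 0.45 below it. It turned Pank1 to 0.77, Pank3 to 0.28, Ctdsp2 to 0.38, 0.070 and -1.02 at positions 553, 1343 and 3993, Dnm2 at position 2620 to -0.30, Egfl7 to -0.075, and Wwp2 to 1.61, -0.11 and -1.18 at positions 297, 2656 and 2826. Without those spots it turned Pank3 to 0.066, Egfl7 to -0.072 and Wwp2 at position 297 to 0.088. Leaving out each array in turn gave ranges that hold 0 for Pank2 at position 3764 (-0.072 to 0.28), Pank3 (-0.093 to 0.047), Ctdsp2 at position 553 (-0.31 to 0.047), Dnm2 at positions 1580 (-0.24 to 1.05) and 2620 (-0.084 to 0.29), Dnm3 (-0.26 to 0.32), Egfl7 (-0.13 to 0.14) and Wwp2 at position 297 (-0.58 to 0.18). Beyond the construction stated, the cause was not tested.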
